A study of Saccharomyces cerevisiae with 117 samples.

Results

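Single budding yeast cells deprived of glucose were compared with cells kept in glucose. The comparison held 38 cells of the 117 in the series: 21 glucose-starved (GS) cells with names starting Y5 and 17 isotonic cells with names starting Y7, all of the second sequencing batch. Every cell was of the haploid strain S288C, grown from 1 clone, and every cell was a spheroplast, that is, a cell whose wall had been removed with Zymolyase. Both groups then sat in the same spheroplast medium with amino acids and 1 M sorbitol as osmotic support, and the GS medium lacked glucose. The labels give a range of exposure times for all treatments together, and how long each single cell had spent in its medium was not stated. By the rule that chose the cells, 6 GS cells (Y501 to Y506), 2 isotonic cells (Y713 and Y714) and the 20 GS cells named Y2, which had few reads, were left out. The names starting Y5 and Y7 run with the treatment, so the treatment and whatever else those name series share cannot be told apart.

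Budding yeast ferments glucose in preference to other carbon sources, and while glucose is present it represses the genes for respiration and for the use of ethanol, acetate, lactate and glycerol. When glucose runs out, the kinase Snf1 relieves this repression, the activators Cat8 and Adr1 switch on the glyoxylate cycle, gluconeogenesis and acetate use, and Msn2 and Msn4 switch on stress genes. Genes for ribosomes and protein synthesis are known to be turned down at the same time.

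Each library was 1 cell, and no culture or day was named, so each treatment counted as 1 sample and no p-value across cells was computed. Values are CPM, the reads on a gene per 1000000 reads on all genes of that cell, and a group mean gave each cell the same weight. The log2 fold change is the log2 of mean CPM plus 1 in GS over mean CPM plus 1 in isotonic cells. Genes with a read in at least 20% of the 38 cells (8 cells) were compared, 2106 in all. A gene was called when its means differed at least 2-fold, still did so without the highest cell of each group, and lay in the same order in at least 75% of the 357 pairs of a GS and an isotonic cell. By this rule 145 genes (6.89%) were called higher and 68 (3.23%) lower in GS, 10.1% in either direction, and the median log2 fold change of the genes compared was 0.64. The fold alone was passed by 929 genes (44.1%) upward and 551 (26.2%) downward, 70.3% of the genes together.

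The groups differed in depth. GS cells had 705807 to 2535593 reads on genes (median 1607922) and isotonic cells 14245 to 1133518 (median 433165). Genes with a read numbered 967 to 1662 in GS (median 1332) and 191 to 1894 in isotonic cells (median 1047). Spike-in RNA took 19.4 to 87.9% of the reads counted on genes and spike-ins in GS cells and 54.2 to 98.8% in isotonic cells, and reads that fell on several genes at once stood at a median of 3.11 per 100 reads on genes in GS and 28 in isotonic cells, with 327 in cell Y709. Fewer transcripts per cell and fewer copies of them caught cannot be told apart here. Counts are therefore also given after each cell was thinned to 14000 reads, where 852 genes could be compared and 33 were called higher (3.87%) and 35 lower (4.11%). Counted only at 100 CPM or more in a cell, a cut chosen after seeing the data, 32 were called higher and 30 lower among 670. In the shallowest isotonic cell, with 14245 reads, a few reads reach 100 CPM, so the cut is more lenient there than in GS cells. The calls shared by all 3 ways of counting, 29 higher and 27 lower, are the 56 genes described most closely below. Intervals on shares of cells and on summed reads are exact, at 95%, and cover counting error only, since the reads were amplified by PCR and carried no molecular identifiers.

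The strain's mating type was checked with its markers. All 7 genes specific to the a mating type had 0 reads in all 38 cells, while MF(ALPHA)1, the alpha-factor gene of the alpha mating type, was read in 19 of 21 GS and 14 of 17 isotonic cells. No gene specific to the alpha type or to haploids was called in either direction.

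The left-out GS cells Y501 to Y506 stood apart from the 21 kept ones. They had 334 to 801 genes with a read (median 645.5), fewer than any of the 21, at 742749 to 1560992 reads. With them in place of the 21 cells, 28 genes were called higher, 7 of them among the 145, and 188 lower, 38 of them among the 68. With all 27 GS cells named Y5 against all 19 isotonic cells named Y7, 63 genes were called higher and 63 lower, of which 62 and 53 were among the main calls. No gene was called in the opposite direction, but HXK2, ARO8 and OM45 lost their calls and changed sign, to 1.05, 0.52 and −0.071. Of the main calls, 62 of 145 upward and 53 of 68 downward ones were thus kept.

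Stretches upstream of 4 genes called higher, which serve the glyoxylate cycle, gluconeogenesis and acetate use, are shown because each holds a match to the carbon source response element, the sequence bound by Cat8 and Sip4. The element was searched as CCNNNNNNCCG on both strands, and the stress response element of Msn2 and Msn4 as CCCCT. Each stretch is read 5′ to 3′ on the gene's own strand, from the RefSeq genome of build R64, with the matching bases in capitals.
ICL1, 398 to 388 bases before the start codon, chrV:287277-287337, minus strand: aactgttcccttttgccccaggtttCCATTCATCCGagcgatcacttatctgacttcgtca
ACS1, 371 to 361 bases before, chrI:45358-45418, minus strand: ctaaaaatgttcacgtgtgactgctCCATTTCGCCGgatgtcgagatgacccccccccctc
ADY2, 333 to 323 bases before, chrIII:133422-133482, minus strand, with the match on the other strand: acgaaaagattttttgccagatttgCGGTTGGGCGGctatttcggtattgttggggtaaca
PCK1, 481 to 471 bases before, chrXI:630652-630706, plus strand: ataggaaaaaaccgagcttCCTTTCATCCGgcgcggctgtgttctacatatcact
Within 250 bases of the start codon 11% of the 145 genes called higher held such a match, against 9.94% of the genes compared and 8.6% of all 6002 promoters. Within 500 bases the shares were 34.5%, 24.5% and 20.8%. The list of 8 glyoxylate cycle and gluconeogenesis genes held it in 7, or 87.5%, all of them beyond 250 bases, since within 250 bases none did.

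The stress response element also stood upstream of a larger share of the genes called higher than of all genes compared. Within 500 bases it stood before 62.8% of the genes called higher and before 79.3% of the 29 that passed both other ways of counting. It stood before 41.6% of the genes compared and before 35.3% of the genes called lower. Within 250 bases the shares were 41.4%, 48.3%, 24.9% and 17.6%. Examples are shown from 3 genes described below.
HSP12, 190 to 186 bases before the start codon, chrVI:107041-107095, plus strand: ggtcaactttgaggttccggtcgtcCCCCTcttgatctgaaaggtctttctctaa
CTT1, 133 to 129 bases before, chrVII:654476-654530, plus strand: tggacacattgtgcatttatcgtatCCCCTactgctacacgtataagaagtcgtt
TPS1, 305 to 301 bases before, chrII:490668-490722, minus strand: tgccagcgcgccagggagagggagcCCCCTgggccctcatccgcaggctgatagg
HSP12 held 5 such matches within 500 bases, TPS1 6 and CTT1 3. A match is a run of letters and not a measured binding site.

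ICL1, encoding isocitrate lyase, which opens the glyoxylate cycle, had the highest log2 fold change of all called genes. It lies at chrV:285241-286914 on the minus strand. Its level in GS cells was 0 CPM at the lowest, 281 at the median and 9671 at the highest, with a mean of 2502 ± 3538 (SD, 21 cells), and 0 in every isotonic cell. It had a read in 95.2% of GS cells (interval 76.2 to 99.9%) and in 0 of 17 isotonic cells (upper bound 19.5%). Scaled to the reads of each group, its 78854 summed reads stood 5631-fold above a floor of 3 reads over the isotonic group. That floor is a chosen value, and the reads were amplified by PCR. This fold, and those given below against such a floor, are therefore not lower limits on the difference in transcripts. The level was not spread evenly over the GS cells. In 13 cells ICL1 had 325 to 15273 reads, and in the other 8 it had 0 to 5 reads.

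All 7 compared members of the glyoxylate and gluconeogenesis list were called higher, and their median log2 fold change was 9.63 against 0.64 over all genes compared. MLS1, malate synthase, the second enzyme particular to the cycle, had a median of 169 CPM in GS (0 to 8079) and reached 22.9 CPM in the 1 isotonic cell that had a read. PCK1, phosphoenolpyruvate carboxykinase of gluconeogenesis, was read in 11 GS cells, at up to 10589 CPM, and in 0 isotonic cells. Its summed reads stood 2220-fold above the isotonic floor. SFC1, the mitochondrial succinate-fumarate carrier, was read in 16 GS cells and 0 isotonic cells, with summed reads 3540-fold above that floor. CIT2, the peroxisomal citrate synthase, was the member seen most widely in isotonic cells, in 13 of 17, with medians of 876 CPM in GS and 27.2 in isotonic cells and a log2 fold change of 3.15. MDH2, the cytosolic malate dehydrogenase, had a log2 fold change of 3.36, and IDP2, the cytosolic NADP-dependent isocitrate dehydrogenase, 8.31. FBP1, fructose-1,6-bisphosphatase, had a read in only 2 GS cells, with a mean of 0.510 CPM over the group, and in no isotonic cell, too few to be compared. Summed, the 8 genes took 0.0327 to 3.94% of a GS cell's reads (median 0.669%) and 0 to 0.334% of an isotonic cell's (median 0.00421%). In 15 of 21 GS cells the share was above that of every isotonic cell. After thinning, 4 of 6 compared members were called higher, against 3.87% of all genes compared.

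ICL1 and its partners did not reach 100 CPM in the same cells throughout. Of the 13 GS cells with ICL1 at 100 CPM or more, 8 also had MLS1 there, 6 PCK1, 11 JEN1, 11 ADY2, 10 ADH2 and 12 HXT5. MLS1 was at that level in 3 cells without ICL1, whereas every cell with PCK1 there also had ICL1. GRE1, induced by stress, was at 100 CPM or more in 20 of the 21 GS cells and so did not divide them at that level.

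**Figure D1:**
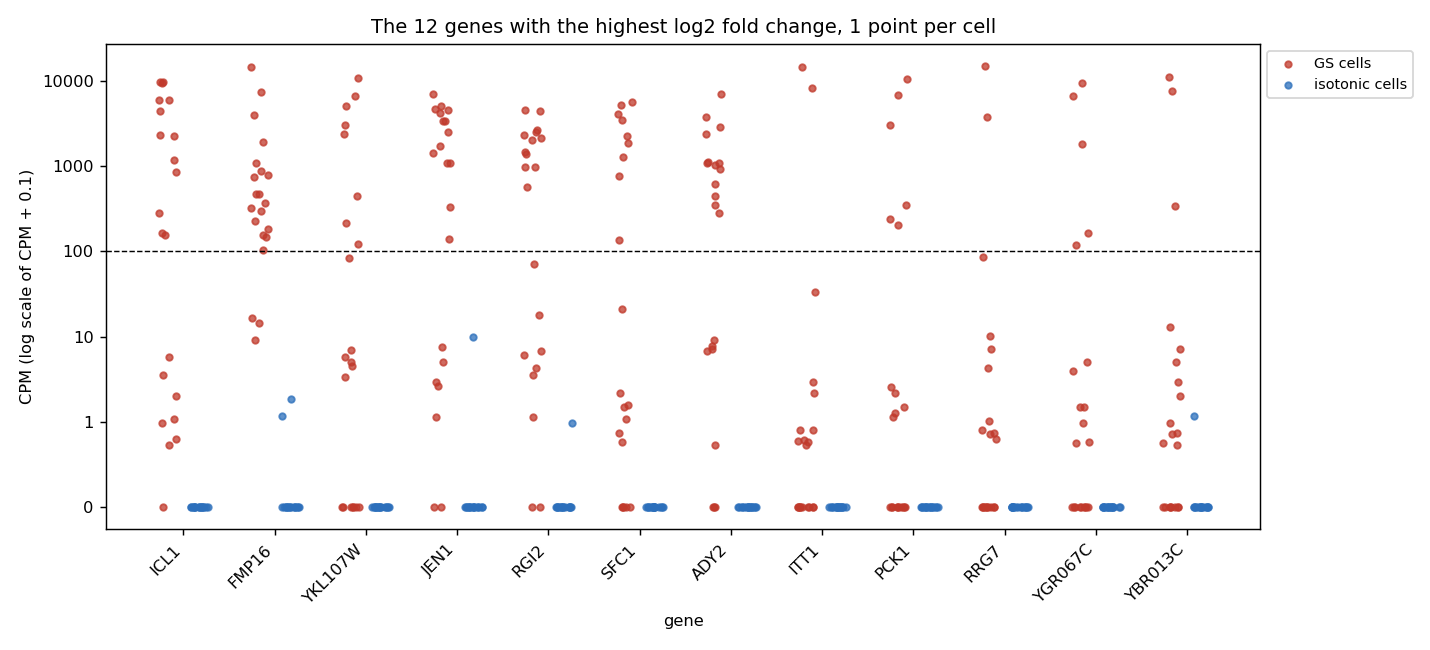
Level of the 12 called genes that had the highest log2 fold changes, 1 point per cell, on a log axis of CPM plus 0.1, with GS cells in red, isotonic cells in blue and a dashed line at 100 CPM. GS cells spread from 0 to 14940 CPM (RRG7), while the highest isotonic value is JEN1 at 9.90 CPM, and ITT1 and RRG7 pass 100 CPM in only 2 GS cells each.

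Most genes on the list of ethanol and acetate use and the carnitine shuttle were called higher in GS. Of 12 members, all compared, 8 were called higher (66.7%, against 6.89% of all genes compared) and 0 lower. The median log2 fold change was 4.59. ALD3, a cytosolic aldehyde dehydrogenase, was at 422 to 37184 CPM in the GS cells (median 9982) and at 0 to 2124 CPM in isotonic cells (median 37.5). It had a read in 21 of 21 GS and 12 of 17 isotonic cells, and 16 GS cells stood above every isotonic cell. ALD4, the mitochondrial enzyme, had medians of 1487 and 13.8 CPM and a log2 fold change of 4.07. ACS1, the acetyl-CoA synthetase of non-fermenting cells, had medians of 277 and 0 CPM and a log2 fold change of 6.93, while ACS2, the form used on glucose, stood at −1.37 and was not called. ADH2, the alcohol dehydrogenase that consumes ethanol, was read in all 21 GS and 13 isotonic cells. Its level reached 100 CPM in 11 GS cells, with a highest value of 35946 CPM, and in 0 isotonic cells, whose highest was 21.4 CPM. The carnitine acetyltransferase gene YAT1 had medians of 4775 and 0 CPM, and CAT2 and CRC1, which serve the same acetyl shuttle, had log2 fold changes of 5.14 and 4.04. The list took 0.515 to 8.35% of the reads of GS cells and 0.00435 to 0.802% of those of isotonic cells, and 19 of 21 GS cells lay above every isotonic cell.

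Transporters for other carbon sources followed. JEN1, the lactate and pyruvate permease, was at a median of 1090 CPM in GS cells (0 to 6936), was read in 19 of them and was seen in 1 isotonic cell at 9.90 CPM. ADY2, an acetate transporter, had a median of 447 CPM (0 to 7056) and was read in 18 GS and 0 isotonic cells. Its summed reads stood 3012-fold above the floor of 3 isotonic reads. STL1, the glycerol-proton symporter, had a median of 896 CPM (0 to 13394), and its only isotonic cell with a read held 3185 CPM, so that 7 GS cells lay above it. Of 8 compared members of this list 5 were called higher (62.5%, against 6.89% of all genes compared). DLD1, a mitochondrial lactate dehydrogenase, stood at −0.02. Among 6 compared hexose transporters and sensors HXT5 alone was called, higher, a share of 16.7% against 6.89% of all genes compared. This transporter, known from slow growth and poor carbon sources, had medians of 2793 and 0 CPM and was read in 20 GS and 3 isotonic cells. HXT2, a high-affinity transporter, stood at −0.80 and was not called, and 8 of the 16 genes on that list had no read in any cell.

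Peroxisomal fatty acid oxidation, which yields acetyl-CoA, had few detected genes. Of 9 compared members FOX2, the multifunctional enzyme, and MDH3, the peroxisomal malate dehydrogenase, were called higher, at 7.45 and 3.15. These 2 were 22.2% of the members compared, against 6.89% of all genes compared. FOX2 reached 100 CPM in 9 GS cells and 0 isotonic cells. After thinning 0 of the 4 compared members were called, where 3.87% of all genes compared were called higher and 4.11% lower.

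Small stress proteins were also higher. GRE1, a hydrophilin, had 63.8 CPM in the lowest GS cell, 16166 at the median and 27570 at the highest, a mean of 13608 ± 8371 (SD, 21 cells) against 238 ± 677 (SD, 17 cells). It was read in all GS cells and 5 isotonic cells, and 18 GS cells stood above the highest isotonic value of 2356 CPM. SIP18, its relative among the hydrophilins, was read in 20 GS cells and 0 isotonic cells, mostly at low level, with a median of 16.7 CPM. HSP12, a membrane-stabilizing stress protein, was high in both groups, with medians of 8247 and 2457 CPM. It was the only upward call read in every isotonic cell. TMA10, a small protein associated with ribosomes, had medians of 338 and 0 CPM, and SPI1, a cell wall protein, 667 and 0. Of 14 compared members of the list 8 were called higher (57.1%, against 6.89% of all genes compared) and 0 lower. They took 0.873 to 6.41% of GS reads and 0.0133 to 2.10% of isotonic reads. Heat shock chaperones had no single direction. Their list took a median of 0.983% of GS reads and 0.624% of isotonic reads, while the median log2 fold change of its members was −0.52. Of 20 compared, the Hsp110 gene SSE2 was called higher (5%, against 6.89% of all genes compared). SSA2, SSE1 and YDJ1 were called lower (15%, against 3.23%). After thinning 0 of 16 compared were called either way, where 3.87% of all genes compared were called higher and 4.11% lower.

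Genes known from respiratory growth and stationary phase had 12 of 16 compared members called higher (75%, against 6.89% of all genes compared). FMP16, a mitochondrial protein gene, separated the groups completely in these cells. It was at 9.0 to 14495 CPM in GS (median 369) and 0 to 1.76 CPM in isotonic cells, where it had 3 reads in all (interval 0.619 to 8.77). The lowest GS values lie within the limit of depth. In the shallowest isotonic cell, with 14245 reads, 1 read is more than 9.0 CPM, so 0 reads there cannot be told from that level. RGI2, needed for energy metabolism under respiration, had a median of 979 CPM in GS and 1 isotonic read (interval 0.0253 to 5.57). SPG4 and SPG1, required for survival in stationary phase, had GS medians of 1781 and 256 CPM against 0 and 0. OM45, an outer mitochondrial membrane protein, had medians of 515.3 and 0 CPM, with 1 isotonic cell at 5790 CPM, and its log2 fold change of 2.69 turned to −0.071 with all 27 GS and 19 isotonic cells. The list took 0.389 to 3.92% of GS reads and 0.00442 to 0.878% of isotonic reads.

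**Figure D2:**
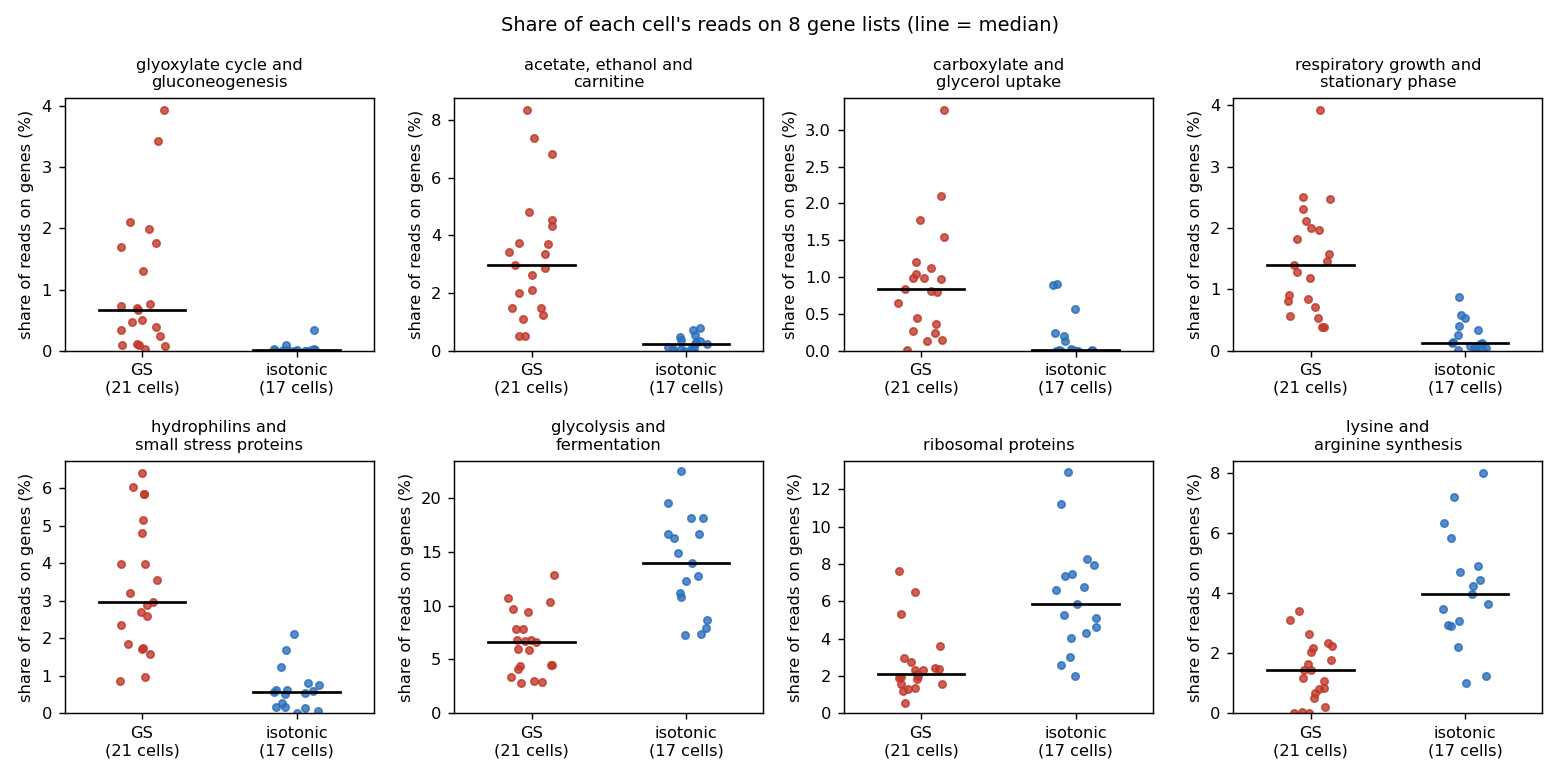
Share of each cell's reads on genes, in percent, that fell on 8 gene lists, 1 point per cell, with a line at the median of 21 GS and 17 isotonic cells. The 5 carbon and stress lists have GS medians from 0.669 to 2.98% above isotonic medians of at most 0.570%, and the glycolysis, ribosomal protein and lysine and arginine lists have the higher median in isotonic cells.

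Respiration itself was less marked. Of 35 compared genes of the respiratory chain and ATP synthase 9 were called higher (25.7%, against 6.89% of all genes compared) and 0 lower. The median log2 fold change was 2.85. The 9 were subunits of the cytochrome bc1 complex (QCR7, QCR8 and QCR10), of cytochrome c oxidase (COX9) and of ATP synthase (ATP3, ATP4, ATP7, ATP17 and ATP18). ATP7 had medians of 119 and 0 CPM and was read in 16 GS and 4 isotonic cells. The share of reads on the list overlapped broadly, at 0.0553 to 1.52% in GS and 0.0179 to 1.27% in isotonic cells. After thinning 1 of 18 compared members was called, upward, where 3.87% of all genes compared were called higher. Of 16 compared genes of the tricarboxylic acid cycle 0 were called, against 10.1% of all genes compared called either way. The list took a median of 0.313% of GS reads and 0.179% of isotonic reads. KGD1, a subunit of 2-oxoglutarate dehydrogenase, had means of 1338 and 13.5 CPM that rested on 4 GS cells with 100 CPM or more.

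Antioxidant enzymes were called in both directions. CTT1, the cytosolic catalase, was at 4.25 to 3908 CPM in GS (median 1153) and 0 to 443 CPM in isotonic cells (median 4.05), and GLO1, glyoxalase I, had medians of 1842 and 90.8 CPM. The glutaredoxins GRX1 and GRX2 were called higher and GRX3 lower, at −4.31, read in 5 GS and 11 isotonic cells. TRR1, thioredoxin reductase, had medians of 0 CPM in GS and 2527 in isotonic cells and was read in 8 GS and 16 isotonic cells, with a log2 fold change of −4.84. The peroxiredoxins TSA1 and AHP1 had medians of 2639 and 5384 CPM in GS against 4712 and 20614 in isotonic cells. Of 25 compared antioxidant genes 4 were called higher and 4 lower, 16% each way, against 6.89 and 3.23% of all genes compared. Of 15 compared trehalose and glycogen genes 2 were called higher (13.3%, against 6.89% of all genes compared) and 0 lower. These were TPS1 and TPS2, which make trehalose, at 1.83 and 2.14. The glycogen genes PGM2 and GPH1 stood at −0.03 and −0.99. The list took a median of 0.738% of GS reads and 0.923% of isotonic reads.

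**Figure D3:**
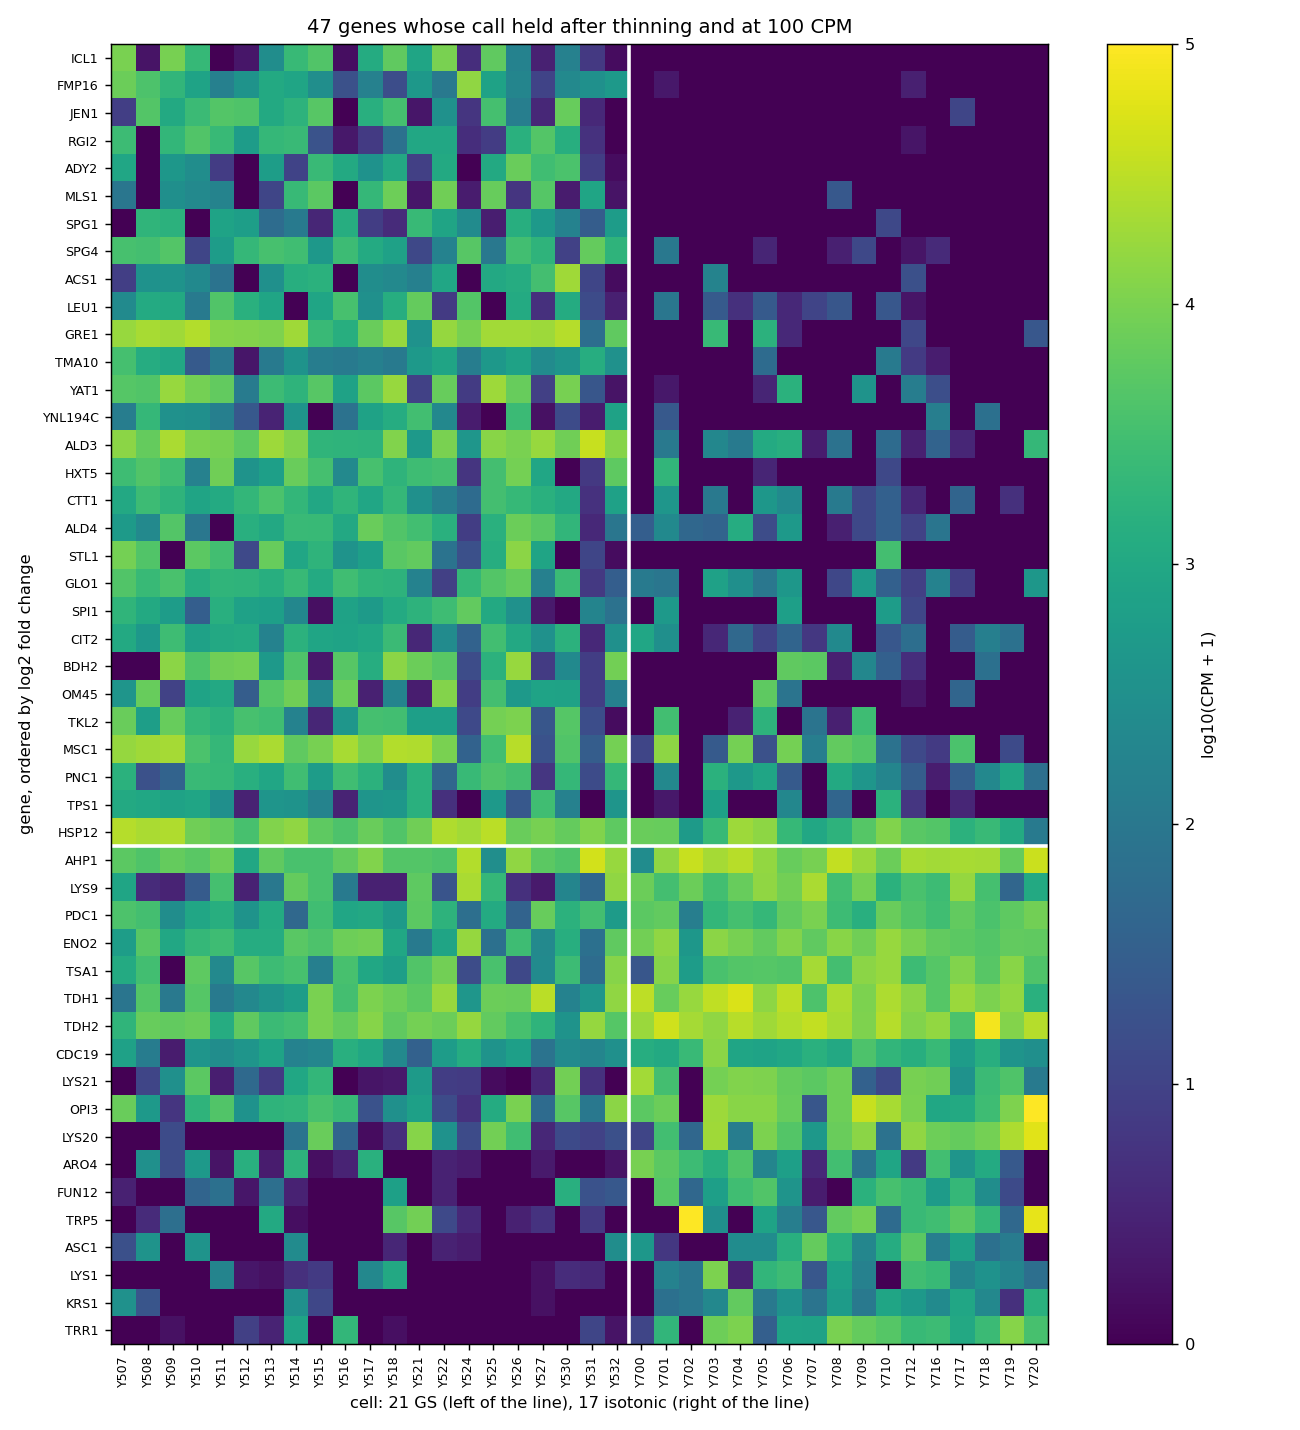
Level of 47 of the 56 genes whose call held after thinning and at 100 CPM (9 ribosomal protein genes are not drawn), as log10 of CPM plus 1, in 21 GS cells (left) and 17 isotonic cells (right), with 29 genes called higher above the line and 18 called lower beneath it. Among GS cells Y531 and Y524 have the fewest upper genes at 100 CPM, 7 and 11, against a median of 24.

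Among genes for amino acid synthesis, those of lysine and arginine had the largest share of downward calls. This was 7 of 14 compared members (50%, against 3.23% of all genes compared), with 0 upward. LYS20 and LYS21 encode the homocitrate synthases that begin lysine synthesis. LYS20 was at 0 to 12172 CPM in GS (median 12.5) and at 10.2 to 60216 CPM in isotonic cells (median 7296), and 10 GS cells lay below every isotonic cell. LYS21 had medians of 6.30 and 5556 CPM. LYS1, saccharopine dehydrogenase, the last step, had medians of 0 and 182 CPM, LYS9 101 and 3621, and LYS2 had a log2 fold change of −3.67. ARG1, argininosuccinate synthase, was read in 11 GS cells and all 17 isotonic cells, with medians of 0.712 and 1048 CPM, and 15 GS cells lay below the lowest isotonic cell. The list took 0.00418 to 3.41% of GS reads and 1.00 to 8.02% of isotonic reads. In aromatic and histidine synthesis ARO4, ARO8 and TRP5 were called lower, of 15 compared (20%, against 3.23%). ARO8, however, stood at 0.52 with all 27 GS and 19 isotonic cells. In branched-chain synthesis 2 of 10 compared members were called higher (20%, against 6.89% of all genes compared) and 0 lower. LEU1, isopropylmalate isomerase of leucine synthesis, was at a median of 887 CPM in GS cells (0 to 6689) and 0.882 CPM in isotonic cells (highest 90.8), and BAT2, the cytosolic transaminase, was called higher at 7.27, while its mitochondrial counterpart BAT1 stood at −0.60. GCN4, the activator of amino acid synthesis genes, was read in 20 and 14 cells and stood at 0.84, not called.

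The glycolytic genes called lower in GS encode forms of hexokinase (HXK2), glyceraldehyde-3-phosphate dehydrogenase (TDH1 and TDH2), enolase (ENO2), pyruvate kinase (CDC19) and pyruvate decarboxylase (PDC1). Other forms of these enzymes were not called, such as the enolase ENO1, at −0.87. Of 24 compared glycolysis and fermentation genes, 6 were called lower (25%, against 3.23% of all genes compared) and 0 higher. By fold alone 10 were at least 2-fold lower and 4 at least 2-fold higher. The list took 2.85 to 12.9% of GS reads (median 6.57%) and 7.29 to 22.4% of isotonic reads (median 14%). TDH2 was at 361 to 16104 CPM in GS (median 6213) and 3820 to 80590 CPM in isotonic cells (median 21445), and 11 isotonic cells lay above every GS cell. CDC19, the main pyruvate kinase, had medians of 325 and 1301 CPM, PDC1, the main pyruvate decarboxylase, 1125 and 4315, and ENO2, an enolase, 1340 and 8215. HXK2, the hexokinase that also takes part in glucose repression, was read in 4 GS and 11 isotonic cells, with a log2 fold change of −4.62, although it stood at 1.05 with all 27 GS and 19 isotonic cells. TDH3 remained the most abundant of its family in GS. It was at 4513 to 21641 CPM there and 13707 to 36403 CPM in isotonic cells, a difference of −0.96 on the log2 scale and just short of 2-fold, with GS the higher in 9.52% of pairs. GPM1, phosphoglycerate mutase, stood at −0.39. Near-identical copies such as TDH1, TDH2 and TDH3 or ENO1 and ENO2 share reads, so single values are uncertain.

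**Figure D4:**
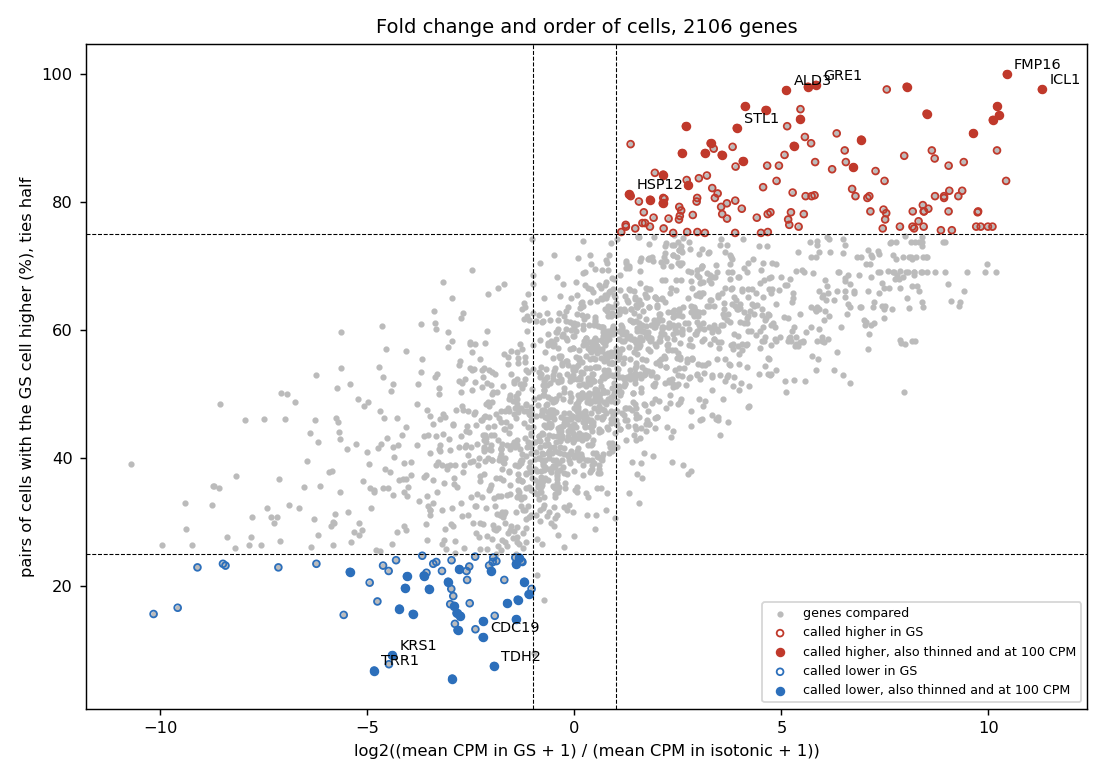
Log2 fold change of mean CPM (horizontal) against the share of pairs of a GS and an isotonic cell in which the GS cell was higher (vertical, in percent) for 2106 genes. Filled points are the 29 higher and 27 lower genes whose call held after thinning and at 100 CPM, and FMP16 stands at 100% of pairs.

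Ribosomal protein genes were lower in 20 of 134 compared cases (14.9%, against 3.23% of all genes compared) and higher in 2. RPS14A of the small subunit was at 0 to 1314 CPM in GS (median 3.37) and at 0 to 10867 CPM in isotonic cells (median 1681), and was read in 15 GS and 16 isotonic cells. Of the large subunit, RPL8B had medians of 0 and 334 CPM and RPL7B 0.712 and 137. The 2 called higher, RPL41B and RPS30B, were not called after thinning, when 13 of 100 compared members were lower, against 4.11% of all genes compared. Reads of the 2 copies of most ribosomal protein genes cannot be told apart with certainty, and RPL7A, RPL7B and ASC1 overlap small nucleolar RNA genes. The list took 0.568 to 7.64% of GS reads (median 2.10%) and 2.02 to 12.9% of isotonic reads (median 5.87%), and 10 GS cells lay below every isotonic cell. ASC1, a ribosome-bound scaffold protein, had medians of 0 and 268 CPM, FUN12, the initiation factor eIF5B, 0.985 and 556, and KRS1, lysyl-tRNA synthetase, 0 and 210.6.

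Genes that build ribosomes were mostly too sparse to compare. Of 104 members 15 were compared, and 1 of these (6.67%, against 3.23% of all genes compared) was called lower, NSR1, a nucleolin-like protein. It had 0 reads in all 21 GS cells and was read in 9 isotonic cells. Its summed isotonic reads stood 5687-fold above a floor of 3 reads over the GS group. They came mostly from 2 cells, Y712 with 2506 reads and Y717 with 773. After thinning 1 member of the list was compared and 0 were called, and at 100 CPM 0 were compared. RPA190, which encodes a subunit of RNA polymerase I, had 0 GS reads and 8 isotonic cells with a read, and was not called. This list held the polymerase A and C box GATGAG within 250 bases in 89.4% of members, against 17% of all promoters and 17.6% of the genes called lower.

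The direction of some downward groups changed with the scaling of cells. With DESeq2 size factors in place of total reads, the median of all genes compared moved to 2.05, the calls to 174 higher and 34 lower, and the share of calls that were upward from 68.1% to 83.7%, against 48.5% after thinning. The ribosomal protein list then had a median of 0.77 with 4 higher and 6 lower, and glycolysis 1.15 with 2 higher and 1 lower, both still below the median of all genes, which had itself moved up from 0.64. CDC19, ENO2 and AHP1 turned to 0.13, 1.05 and 1.86. The glyoxylate, acetate and hydrophilin lists had 7, 8 and 8 members called higher under either scaling.

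**Figure D5:**
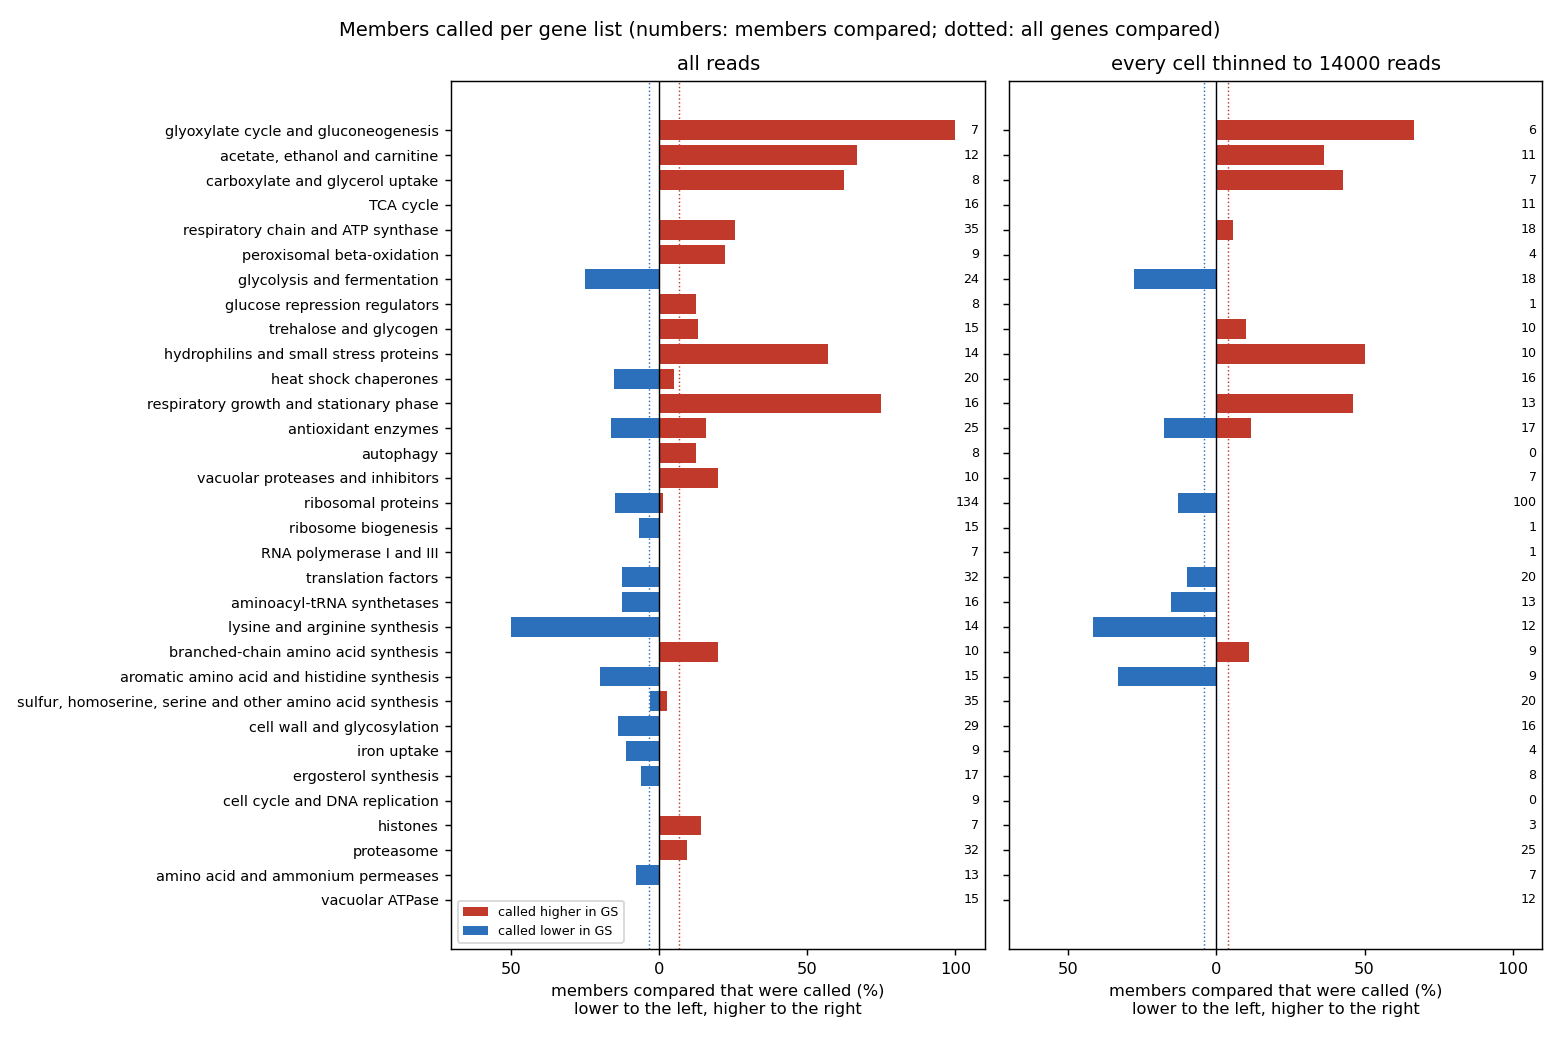
Percent of compared members called higher (to the right) or lower (to the left) in GS for 32 gene lists, with all reads and after thinning each cell to 14000 reads, the number compared at the right edge and dotted lines at the shares of all genes compared, 6.89 and 3.23% with all reads. Bars to the right on the glyoxylate, acetate, transport, hydrophilin and respiratory growth lists appear in both panels.

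Regulators of glucose repression were barely detected. Of 19, 8 were compared, and ADR1 alone was called higher (12.5%, against 6.89% of all genes compared). It was read in 11 GS and 0 isotonic cells and at 100 CPM or more in 7 cells. CAT8 was read in 8 GS and 1 isotonic cells and SNF1, the kinase, in 13 and 3, with log2 fold changes of 4.38 and 1.32 and no call. MIG1 and MIG3, repressor genes, had 0 reads in all 38 cells. YGR067C, which has no standard name, was read in 12 GS and 0 isotonic cells, with summed reads 2820-fold above the floor of 3 isotonic reads. GCN2, the kinase of the amino acid control, was read in 12 and 1. Each of these genes was at 100 CPM or more in only 5 GS cells.

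Several of the largest folds rested on few cells or few reads. ITT1, which acts in translation termination, was read in 11 GS and 0 isotonic cells but reached 100 CPM in 2, and RRG7, a mitochondrial protein, likewise in 2. Among the lowest, DUS3, a tRNA dihydrouridine synthase, had 1 GS read (interval 0.0253 to 5.57) and reads in 12 isotonic cells, with a log2 fold change of −10.16. SIT1, a siderophore transporter, had reads in 2 GS and 12 isotonic cells, at −9.58. PMT2, a protein mannosyltransferase, was read in 1 GS and 10 isotonic cells, at 100 CPM or more in 2 of the latter. None of these was among the 56 genes.

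GS cells were not alike. The Pearson correlation of log2 of CPM plus 1 over the genes compared was 0.156 to 0.362 among pairs of GS cells (median 0.224, 210 pairs), 0.191 to 0.680 among isotonic cells (median 0.292, 136 pairs) and 0.0444 to 0.313 between the groups (median 0.167, 357 pairs). These pairs share cells and the zeros of sparse counts. The first principal component carried 10.4% of the variance and placed GS cells at 0.0425 to 0.186 and isotonic cells at −0.438 to 0.0447, with r = 0.547 to the log10 of reads over the 38 cells, and r = 0.118 over the 21 GS cells. The 29 upper genes took 5.54 to 16.9% of GS reads and 0.0583 to 2.99% of isotonic reads, and the 27 lower genes 1.57 to 9.45% and 9.63 to 36.5%. These genes were chosen on the same cells, so the separation is a description. Y531 had the highest spike-in share of the GS cells (87.9%) and the fewest reads. It had reads on 28 of the 29 upper genes but 7 at 100 CPM or more, and the part of depth in this was not tested.

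Amino acid starvation offered a comparison with separate control cells. Its 20 cells were set against the 19 isotonic cells of the first batch by the same rule, which called 25.5% of 5814 genes higher and 3.97% lower. Of the 68 genes called lower in GS, 40 (58.8%) were also called lower in amino acid starvation, 17.3% of the 231 such genes there, and they included LYS20, LYS21, ARG1, KRS1, TDH2 and HXK2. Of 144 genes called higher in GS and compared there, 44 (30.6%) were called higher, near the 25.5% of all genes there, and 0 lower. The median log2 fold change of the 144 in amino acid starvation was 0.69, against 0.65 over all genes compared there. ICL1, GRE1, FMP16, STL1 and HXT5 were among the 44. In hypotonic cells 14 of the 68 were also called lower, where 4% of 5575 genes were and 0.735% were called higher. Of 143 genes called higher in GS and compared there, 13 (9.09%) were called lower, among them ALD3, CIT2, TPS1, LEU1 and YAT1, and 2 higher. The batches differed in depth, and these overlaps were not tested.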

How the data were processed

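Single spheroplasts had been lysed with spike-in RNA, and oligo-dT-primed full-length cDNA had been amplified and sequenced. The authors aligned reads with STAR 2.5.2 to the S288C genome (R64) and counted them per gene with HTSeq; whether strand was used is not stated. The deposited unit is raw counts per gene per cell, with no normalization, and spike-in and summary entries in the same files. From these, CPM was computed over 6420 gene entries only, with each cell weighted equally. Reads outside genes or on several genes stayed out of totals and stood at 1.16 to 12.1 and 0.526 to 327 per 100 reads on genes. Depth was 14245 to 2535593 reads on genes per cell.

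Cells were grouped by treatment label and name. Each group counts as 1 sample, so a size rule stood in for a test: 2-fold on means with 1 CPM added, again without the highest cell of each group, and 75% of cell pairs (ties shared equally). No count model was run across cells; size factors came from DESeq2 1.42.0 (R 4.3.3). Named genes were the 12 highest and 12 lowest log2 fold changes among called genes detected in 50% or more of the higher group's cells, up to 4 genes per list (2 by level and 2 by change among those called), genes that the study's text names for GS, and the regulators of glucose repression. Other genes named, such as those beside a list's count, were chosen with their values in view. The members, the 37 gene lists and the rules were chosen with earlier results of these data known. The promoter window fixed for motifs was 250 bases before the start codon, and 500 is given beside it. Gene names, coordinates and sequences came from the RefSeq annotation of build R64. The procedure was tested on simulated data. Alternatives were pseudocounts of 0.1 and 10 CPM, detection in 50% of cells or in any, DESeq2 size factors, summed reads with and without TMM factors (edgeR 4.0.16), mean log2 values, protein-coding genes only, thinning to 14000 or 80000 reads and other choices of cells. Added after seeing the data were values under 100 CPM set to 0, reads on several genes added to the total, and cell Y709 left out. Scripts ran under Python 3.11.15 (pandas 2.3.3, SciPy 1.17.1, NumPy 2.4.6, matplotlib 3.10.9). A further gene is not reported here.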

Additional observations from a re-analysis of the deposited data

Results flagged for a closer look

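Reads on some of the genes highest in GS were also present in a few GS cells left out of the comparison, above the level in any isotonic cell kept. Among Y501 to Y506, ICL1 reached 2323 CPM in Y501, the 1 cell of 6 with a read, FMP16 712.4 CPM in Y502 and ADY2 4.48 CPM in Y501, from 7 reads. YBR013C, which has no standard name, reached 29801 CPM in Y505 from 24026 reads. JEN1, RGI2, SFC1 and RRG7 had 0 reads in these 6 cells. Among the 20 shallow Y2 cells, ICL1 reached 9194 CPM in Y215 (1015 reads, 6 of 20 cells with a read), JEN1 17564 CPM, ADY2 1150, RGI2 598 and YKL107W 571 in the same cell, and YGR067C 54.4 CPM from 6 reads. FMP16 reached 1147 CPM and YBR013C 203.2 CPM in Y210. SFC1, ITT1, PCK1 and RRG7 had 0 reads in all 20 Y2 cells. These cells entered no comparison of the report other than the stated alternatives.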

How the results depend on the processing

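The main depth limit is in the isotonic cells, and no culture was named for any cell. No paired analysis was possible because each library is a single cell with no number shared between treatments. No gene called in GS changed direction among the calls of any alternative. The counts of calls and of 2-fold differences stayed within 1.5 times with other pseudocounts, summed reads, TMM factors, protein-coding genes only, mean log2 values and without Y709. Shares at least 2-fold higher or lower are given in percent of the genes compared. Without a detection filter 43.7% of 5214 genes were 2-fold higher and 28.6% lower. With detection in 50% of cells 84 of 671 were called higher, and 31.0% were 2-fold higher and 26.5% lower. With DESeq2 size factors 34 were called lower and 16.6% were 2-fold lower, and CDC19 stood at 0.13, ENO2 at 1.05, ADO1 at 0.52, AHP1 at 1.86 and LYS9 at 1.12. Thinned to 14000 reads, 33 were called higher and 35 lower, 34.3 and 27.2% of 852 were 2-fold higher and lower, and beta-oxidation had a log2 ratio of mean shares of 1.92. Thinned to 80000 reads, 53 were called higher and 38.7% were 2-fold higher. Without isotonic cells under 100000 reads 146 were called lower and beta-oxidation stood at 1.62. With values under 100 CPM at 0, 32 were called higher and 30 lower, and 32.5 and 26.4% of 670 were 2-fold higher and lower. With reads on several genes in the total the shares of glycolysis, ribosomal proteins and ribosome biogenesis stood at −0.75, −0.91 and −1.80. The causes were not tested.

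With all 27 GS and 19 isotonic cells 63 were called higher, and the log2 ratio of mean shares was 1.21 for the respiratory chain, 1.87 for beta-oxidation, −0.88 for ribosomal proteins and −1.48 for ribosome biogenesis, while ARO8 stood at 0.52, HXK2 at 1.05 and OM45 at −0.071. With Y501 to Y506 as the GS cells 28 were called higher and 188 lower, 22.8% were 2-fold higher and 63.2% lower, and the median log2 fold change was −3.50. The log2 ratios of mean shares were then 3.14 for glyoxylate, 0.15 for acetate, −4.87 for carboxylate uptake, 0.63 for the respiratory chain, −2.81 for beta-oxidation, −0.59 for glycolysis, 0.59 for hydrophilins, 0.29 for respiratory growth, −0.21 for ribosomal proteins, −0.55 for ribosome biogenesis and −1.58 for aromatic amino acids. With those cells the sign turned for ACS1 (−3.61), TPS1 (−7.24), SSE2 (−0.073), MDH3 (−7.02), GCN2 (−1.72), STL1 (−5.89), RPN12 (−0.86), RGI2 (−0.073), ATP7 (−4.14), JEN1 (−0.66), FOX2 (−2.18), DCS1 (−0.79), ALD3 (−3.59), ADH2 (−0.71) and ALD4 (−1.95), and for SIT1 (0.98), ARO8 (2.42), HXK2 (3.03), THS1 (1.15), AVT1 (1.42), LYS9 (0.18) and RPS9A (1.01). Some of these signs rest on almost no reads. RGI2 and JEN1 had 0 reads in those 6 cells and were each read in 1 isotonic cell, so they were near absent on both sides. SSE2 had a single isotonic read, in Y712. The isotonic mean of STL1 came from 1 cell, at 3185 CPM.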

Other observations

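Other lists had few calls. Of 32 compared proteasome subunits 3 were called higher (PRE4 and RPN12 among them, at 3.46 and 3.88), a share of 9.38% against 6.89% of all genes compared. After thinning 0 of 25 were called, where 3.87% of all genes compared were called higher. Of 29 compared genes of cell wall and glycosylation 4 were called lower (13.8%, against 3.23%), among them GAS1 and CIS3. The vacuolar ATPase had 0 calls among 15 compared subunits, and cell cycle genes 0 among 9, against 10.1% of all genes compared called either way. Lists this small can hold 0 calls at that share. ATG42, a vacuolar carboxypeptidase, and PAI3, an inhibitor of the vacuolar protease A, were read in 17 and 19 GS cells and in 4 isotonic cells each, with log2 fold changes of 5.27 and 6.33.

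Genes called higher had a median of 17 GS and 3 isotonic cells with a read, and 29 of the 145 had no isotonic read. Genes called lower had a median of 10 GS and 15 isotonic cells with a read, and 3 of the 68 had no GS read.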
